A study of Mus musculus with 249 samples.

Results

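Type I interferon induced genes were followed across brains of an F2 mouse cross through 10 genes: Ifit1, Ifit2, Ifit3, Irf7, Isg15, Oasl2, Usp18, Rsad2, Bst2 and Oas1a. They were taken as the probes whose only gene symbol was one of these names. All 10 were measured, by 11 of the 23388 probes, and they made up 10 of the 11508 genes analysed. Oas1a had 2 probes and the other 9 genes had 1 each.

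Each of 249 mice gave 1 brain RNA sample, and each sample was hybridised to its own array of 2 colours. The mice were F2 offspring of the strains C57BL/6J and C3H/HeJ, both carrying the ApoE null background, so every animal lacked apolipoprotein E, and all ate a Western diet high in fat from 8 to 24 weeks of age. Females and males were included, with sex, litter and genotype not given for single animals, so the animals form 1 group with no untreated or control mice. RNA of the animal carried Cy3 and a pool made from all animals carried Cy5, and a value is the log10 of animal over pool: 0 is the level of the pool and 1 is 10-fold above it.

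Type I interferons are cytokines released when a cell senses viral or misplaced nucleic acid. They bind the receptor made of Ifnar1 and Ifnar2, whose kinases lead to the complex ISGF3, which includes Irf9, entering the nucleus. ISGF3 binds the interferon stimulated response element, a paired GAAA repeat near the start of genes such as the ones followed here. In the brain, microglia, astrocytes, endothelium and neurons can all respond, at a low resting level in health.

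The proteins have different tasks. Ifit1, Ifit2 and Ifit3 bind foreign RNA or each other and limit its translation. Oas1a is a 2'-5' oligoadenylate synthetase that activates the ribonuclease RNase L, and Oasl2 is a related protein. Rsad2 (viperin) makes an antiviral nucleotide, and Bst2 (tetherin) holds budding virus at the cell surface. Irf7 is the factor that amplifies interferon production. Isg15 is a ubiquitin-like protein that is joined to other proteins, and Usp18 removes it again and also restrains the receptor.

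The sequence just before the start of Isg15 is shown with those of 3 genes that varied with each other, because it holds the same response element. RefSeq promoter windows of the build GRCm38.p6, from 250 bases before to 50 bases after a gene's start, matched 9 of the 10 genes by symbol, Usp18 being the exception. The 250 bases upstream are printed 5′ to 3′ along the gene, with matches to GAAA, any 2 bases and GAAA again, on either strand, in capitals.
Isg15, chr4:156200819-156201068, minus strand: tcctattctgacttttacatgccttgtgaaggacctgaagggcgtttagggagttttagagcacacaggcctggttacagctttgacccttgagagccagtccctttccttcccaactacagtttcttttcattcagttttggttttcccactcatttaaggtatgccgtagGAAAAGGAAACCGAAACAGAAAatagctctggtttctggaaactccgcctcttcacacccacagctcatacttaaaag
Ifit1, chr19:34640639-34640888, plus strand: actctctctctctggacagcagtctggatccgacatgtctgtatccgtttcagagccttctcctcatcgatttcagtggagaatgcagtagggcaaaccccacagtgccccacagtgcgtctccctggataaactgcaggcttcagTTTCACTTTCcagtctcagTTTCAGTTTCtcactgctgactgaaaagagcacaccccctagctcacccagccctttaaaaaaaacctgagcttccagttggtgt
Ifit3, chr19:34583279-34583528, plus strand: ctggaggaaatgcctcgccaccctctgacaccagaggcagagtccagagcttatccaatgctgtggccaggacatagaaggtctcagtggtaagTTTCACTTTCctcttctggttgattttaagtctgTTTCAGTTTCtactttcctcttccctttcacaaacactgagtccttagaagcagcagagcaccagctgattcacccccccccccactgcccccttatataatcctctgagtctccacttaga
Bst2, chr8:71537473-71537722, minus strand: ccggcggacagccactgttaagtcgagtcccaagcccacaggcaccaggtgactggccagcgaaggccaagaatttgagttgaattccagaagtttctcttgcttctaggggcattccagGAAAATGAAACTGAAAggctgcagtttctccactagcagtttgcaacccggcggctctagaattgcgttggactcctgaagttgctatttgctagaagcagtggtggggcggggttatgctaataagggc

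Isg15 held 3 matches, overlapping each other, that lay between 78 and 57 bases before the start. Ifit1, Ifit3, Bst2 and Oas1a held 2 each, and Rsad2 held 1. No match was present in these windows of Ifit2, Irf7 and Oasl2, which says only that these letters are not in the window. Thus 6 of 9 genes held the motif, against 3.44% of all 32851 windows of the same length. At least 2 matches were found in 0.225% of windows, and at least 3, as in Isg15, in 5 windows (0.0152%). The spaced palindrome TTCNNNGAA, searched in the same way, was in windows of 3 of the 9 genes and in 8.3% of all windows. The Ifit2 gene has 2 windows in the table and was counted once.

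The array of animal 144 was left out because its values spread far more than the rest (SD over genes 0.392, against 0.0585 to 0.258 on the others). It was used only in 1 alternative with all 249 arrays, and its values are described last. Levels, pair correlations and counts of calls are given with animal 208 and without it. The closest genes of each member, the set of genes closest to Isg15, what was left of Isg15 after it, and the chromosomal neighbours were taken without animal 208, and values with it are added where they change the picture. Array medians lay between -0.00627 and 0.0250. The lowest correlation between 2 arrays was -0.353, and 6 of 30628 pairs lay under -0.3. The labels give the same dye order for every array, so the direction was kept. No array batch is named in the labels. Values were compared between animals, never between probes of different genes.

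Of the 10 genes, 9 reached their highest level in the same brain, that of animal 208, and Isg15 did not. In animal 208 the level relative to the median brain was 12.1-fold for Ifit1, 10.8-fold for Irf7, 10.3-fold for Ifit3, 9.29-fold for Oasl2, 9.01-fold for Bst2 and 8.28-fold for Usp18. Ifit2 was at 5.67-fold, Rsad2 at 4.15-fold and Oas1a at 2.37-fold there, while Isg15 was at 1.17-fold. This brain ranked 45th of the arrays used for Isg15.

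Ifit1 ran from -0.234 through a median of -0.0491 to 1.03 over the animals. Ifit3 ran from -0.277 through -0.0559 to 0.958. Irf7 ran from -0.261 through -0.0891 to 0.944. In all 3 genes animal 208 stood highest and animal 348 second, and every other brain was below both. Animal 348 had Ifit1 at 0.451, Ifit3 at 0.339 and Irf7 at 0.443.

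Oasl2 ran from -0.429 through -0.0345 to 0.934 in the 244 animals with a value. Usp18 ran from -0.366 through -0.0738 to 0.844 in 238 animals. Bst2 ran from -0.455 through -0.0737 to 0.881. Animals 208 and 348 were again the highest and second highest for each of these genes, with 348 at 0.559 for Oasl2, 0.377 for Usp18 and 0.405 for Bst2.

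Ifit2 ran from -0.625 through -0.0142 to 0.739, with animal 348 second at 0.210. Rsad2 ran from -0.236 through -0.0175 to 0.599, and animal 348 was 6th at 0.237. Oas1a, as the mean of its 2 probes, ran from -0.319 through -0.00894 to 0.365, with animal 348 4th at 0.139. For these genes the distance between animal 208 and the others was smaller than for Ifit1.

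Isg15 ran from -0.254 through -0.00761 to 0.391. Its highest brain was animal 178, followed by animal 14 at 0.271 and animal 257 at 0.211. Animal 208 was at 0.0611 and animal 348 at 0.00832, 95th in order. The 2 brains highest for Isg15 were not high for most of the other genes. Animal 178 was the lowest brain of all for Ifit2 (-0.625) and Bst2 (-0.455), and its Ifit1 was -0.190, while its Irf7, at 0.167, was the third highest. The array of animal 178 also had the widest spread of those used (SD over genes 0.258, median array 0.0764), as animal 14 was at 0.150 and animal 208 at 0.117.

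**Figure D1:**
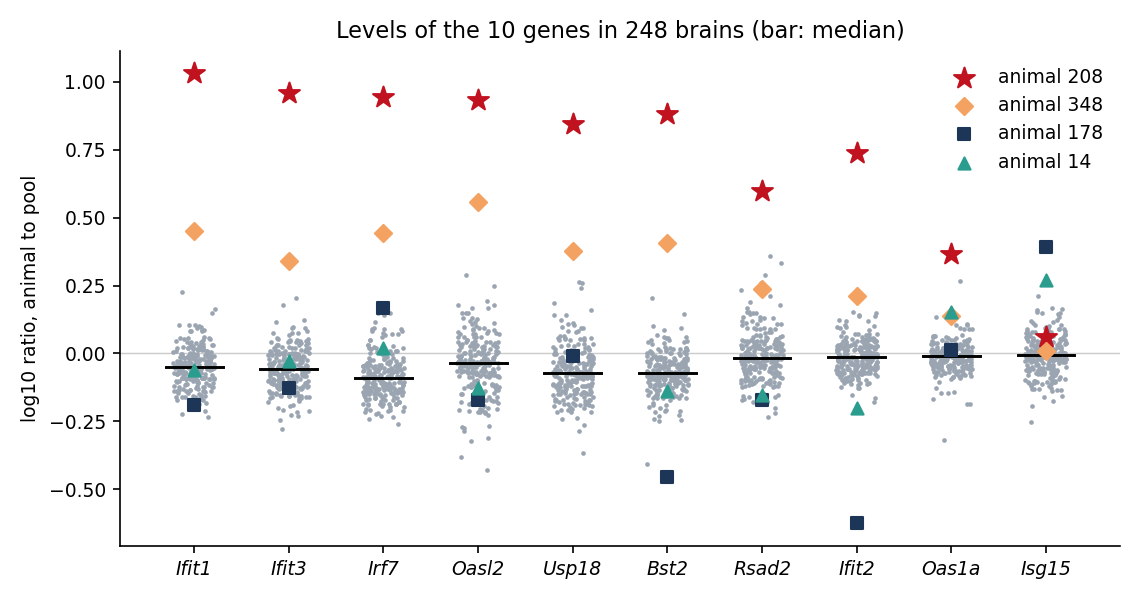
Levels of the 10 genes in all brains but animal 144, 1 point per animal, as log10 of animal over pool on the vertical axis, with the median as a bar. Animal 208 (star) is highest for 9 genes and at 0.0611 for Isg15, where animal 178 (square) is highest at 0.391.

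Isg15 was among the less variable of the 10 but varied more than most genes. Its SD over animals was 0.0781, against 0.105 for Ifit1 and 0.102 for Ifit3. Without animal 208 it was 0.0782, above 79.9% of all genes, against 0.0794 and 0.0796. Without that animal Ifit2 (0.0734) and Oas1a (0.0567) were below Isg15, and the other 7 genes lay above it, up to 0.112 for Oasl2, while the median gene had 0.0543.

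After 208 and 348, animals 122 and 243 carried much of the same group of genes at a lower level, and animal 47 carried little of it. The 5 brains highest for Ifit1 were 208, 348, 122, 243 and 47, so Ifit1 is high in each by choice. Of the 10 genes, 9 were above their own 95th percentile in animals 208 and 348, 7 in animals 122 and 243, and 3 in animal 47. In animal 243 Oasl2 was 0.288, Usp18 0.264 and Bst2 0.203, yet Isg15 was -0.0651. In animal 122 Usp18 was 0.259 and Ifit3 0.202, with Isg15 at 0.0889. Isg15 was thus above 0 in some of these brains and below 0 in another.

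To ask how far the genes varied together, every gene was regressed on each of the 10 across animals with limma, and the p-values were adjusted by Benjamini-Hochberg over all genes tested. A pair was called when the relation was positive with an adjusted p under 0.05 in both directions. All 36 pairs among the 9 genes other than Isg15 were called, and 33 of them without animal 208. None of the 9 pairs with Isg15 was called in either case by limma, and 0 were positive at an unadjusted p under 0.05. The background against which each pair is read is the share of all genes called positive on the gene. It was 3.15% for Ifit1, 4.88% for Usp18, 8.48% for Ifit3, 9.57% for Irf7, 12.4% for Oas1a, 17.6% for Rsad2, 17.8% for Bst2, 21.3% for Oasl2, 24.8% for Isg15 and 27.9% for Ifit2. Without animal 208 it was 7.24% for Ifit1, 8.79% for Usp18, 13.5% for Ifit3, 18.3% for Irf7, 17.3% for Oas1a, 21.2% for Rsad2, 23% for Bst2, 27.7% for Oasl2, 24.9% for Isg15 and 27.3% for Ifit2. A positive call on Ifit2, Isg15 or Oasl2 was thus common among all genes, and one on Ifit1 or Usp18 was not. Animals of an F2 cross share segregating alleles and may share litters, and the p-values measure only the spread between these animals.

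A tight core was formed by Ifit1, Ifit3, Irf7, Oasl2, Usp18 and Bst2. They were grouped after their correlations were seen, so this is a description. The mean Pearson correlation over their 15 pairs was 0.736, and 0.606 without animal 208. The weakest of these pairs was Ifit3 with Oasl2 (r = 0.635, 0.483 without 208).

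The closest pair was Irf7, which drives interferon production, with Usp18, which restrains the receptor. Their r was 0.825 (95% interval 0.780 to 0.862, n = 238, limma adjusted p = 5.15e-57) and Spearman's rho was 0.736. Without animal 208 r was 0.752, and without the farthest 2 animals, 208 and 348, it was 0.724. Ifit1 and Ifit3, which lie next to each other among the measured genes of chromosome 19, had r = 0.766 (0.709 to 0.813, limma adjusted p = 2.6e-46) and rho = 0.519. That value fell to 0.603 without animal 208 and to 0.549 without 208 and 348.

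Rsad2, Oas1a and Ifit2 followed the core loosely. The mean r with the other 9 genes was 0.358 for Rsad2, 0.361 for Oas1a and 0.348 for Ifit2, against 0.533 to 0.582 for the core genes. Without animal 208 these means were 0.218, 0.219 and 0.131, against 0.382 to 0.457. The 3 pairs no longer called without animal 208 all involved Ifit2: with Irf7 (r = -0.0934), with Rsad2 (r = 0.127) and with Oas1a (r = 0.0015).

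Isg15 stood apart from all of them. Its mean r with the other 9 was -0.0169, and -0.0540 without animal 208. The highest was with Ifit1 (r = 0.106, interval -0.0190 to 0.227, limma adjusted p = 0.36). Its r with Usp18, the enzyme that removes Isg15 from proteins, was 0.0554 (interval -0.0723 to 0.181, n = 238), and with Oasl2 0.0564. With Bst2 the relation was negative (r = -0.215, interval -0.331 to -0.0934, limma adjusted p = 0.00293), and with Ifit2 as well (r = -0.195, interval -0.312 to -0.0721, limma adjusted p = 0.00453).

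The negative relation with Ifit2 was not called once animal 178, the brain highest for Isg15, was left out with animal 208 (r = -0.120, limma adjusted p = 0.104), nor on ranks (limma adjusted p = 0.0756). That with Bst2 was called without 208 and 178 (r = -0.233), without 208, 178 and 14 (r = -0.226, limma adjusted p = 0.00134) and on ranks (rho = -0.203). On ranks the relation of Isg15 with Ifit1 was positive and just past the threshold (rho = 0.144, limma on ranks, adjusted p = 0.0473). A fit with the first principal component of all genes as a covariate gave 0.187 with Ifit1 (limma adjusted p = 0.00863) and 0.180 with Ifit2 (limma adjusted p = 0.0120), which turns the sign for Ifit2. In that fit Bst2 was at -0.0835 (limma adjusted p = 0.287), and without animal 208 it was at -0.170 (limma adjusted p = 0.0189). The positive values were under those of any pair within the core.

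**Figure D2:**
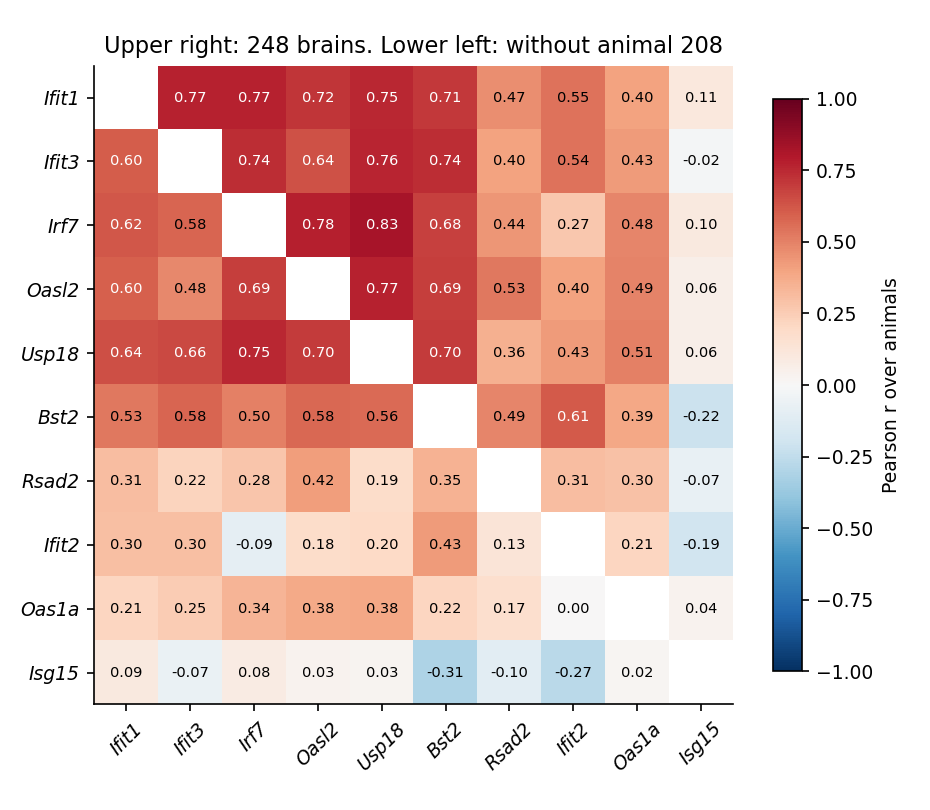
Pearson r over animals for each pair of the 10 genes, on a colour scale from -1 to 1, with all brains analysed above the diagonal and without animal 208 below it. The 6 genes at the upper left exceed 0.48 in every pair, and the row of Isg15 lies between -0.31 and 0.11.

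The animals were also read in parts by their numbers, cut at number 192. The 9 genes without Isg15 had a mean r of 0.335 in the lower part and 0.449 in the higher part without animal 208. The pairs of Isg15 had means of -0.0804 and -0.0238, but its single pairs went both ways and were unlike in the parts. In the lower part Isg15 had r = -0.473 with Ifit2, -0.399 with Bst2 and 0.215 with Irf7 (limma adjusted p = 0.0292 in the fit on Isg15). In the higher part without animal 208 these were -0.0236, -0.230 and -0.0245. The difference between the parts was not tested. The numbers are names of animals and no processing date is known for them.

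Set against all genes, the fit on Ifit1 called 8 of the other 9 genes positive, where 363 of 11507 genes (3.15%) were. Without animal 208 the same count was 8, where 833 genes (7.24%) were. The gene left out was Isg15 in both. Genes called negative were 1.98% and 9.04% of all genes, with none of the 9 among them. The count of all genes was thus larger without animal 208, while the count of the 9 did not change.

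The fit on Isg15 called far more of the genome and fewer of these genes. It called 2851 genes (24.8%) positive and 3603 (31.3%) negative, and of the other 9 none was positive and 2, Ifit2 and Bst2, were negative. Without animal 208 the shares were 24.9% and 31.8%, and the members were the same. The highest r among the 9 was then that of Ifit1, at 0.0941.

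**Figure D3:**
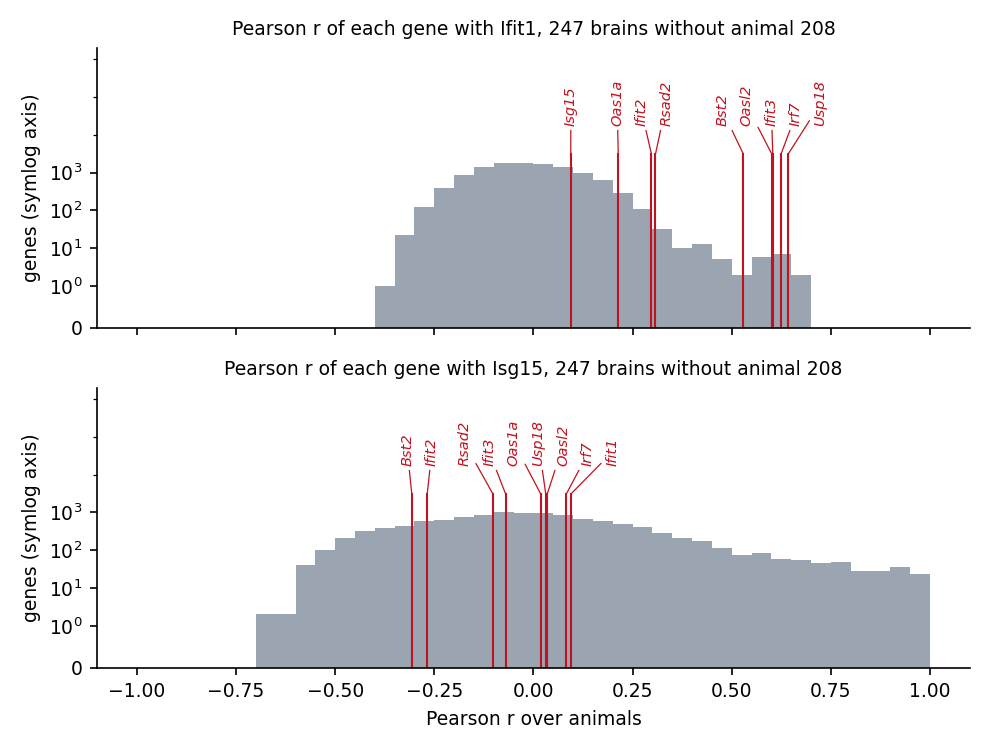
Number of genes (symlog axis) by Pearson r with Ifit1 (upper panel) and with Isg15 (lower panel) in 247 brains without animal 208, with the other 9 genes marked by lines. For Ifit1 the members lie at the right end of the distribution except Isg15 at 0.0941, and for Isg15 they lie between -0.307 and 0.0941 while other genes reach 0.971.

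The genes closest to Ifit1 were interferon induced genes outside the 10. By r without animal 208 they were Rtp4 (0.695, and 0.812 with it), Cxcl10 (0.673, and 0.808 with it), Gbp2 (0.630), Oasl1 (0.622), Tgtp1 (0.601), Parp14 (0.597), Oas1g (0.576), Trim30a (0.576), Ifi204 (0.569) and Gbp3 (0.569). Rtp4 is a receptor transporter that binds viral RNA, Cxcl10 is a chemokine that draws T cells, and Gbp2 and Gbp3 are guanylate binding proteins. The genes of lowest r were Slc27a1 (-0.361), Slc35b1 (-0.332) and Commd4 (-0.331).

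Of the 20 genes closest to Ifit1, 5 were among the 10 and 14 more were on the interferon lists. For Usp18 the numbers were 5 and 14, for Irf7 5 and 13, for Ifit3 4 and 13, for Bst2 4 and 9, and for Oasl2 4 and 6. Ifit2, Rsad2, Oas1a and Isg15 had none of either kind among their 20. The 6 genes with such neighbours were those of the core. The members among the 20 come from the same pair correlations that formed the core, so this is no separate support for it. The division was not sharp, as Oasl2 had 10 genes of neither kind among its 20.

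**Figure D4:**
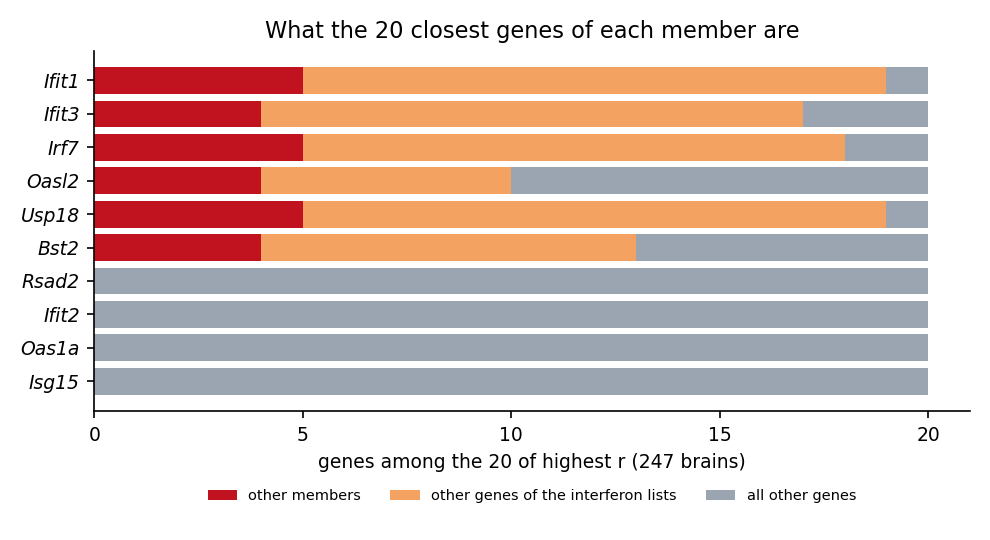
For each of the 10 genes, the 20 genes of highest Pearson r in 247 brains, counted as other members, other genes of the interferon lists, and all others. Ifit1 and Usp18 have 1 gene of the last kind, and Rsad2, Ifit2, Oas1a and Isg15 have 20.

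The pathway around the genes was read from lists, in the fit on Ifit1, where 3.15% of all genes were called positive and 7.24% without animal 208. These shares are the background of every list count on Ifit1, markers of cell types included. Of 31 other interferon induced genes measured, 23 were called positive and 16 without animal 208, with no negative call and a median r of 0.436 and 0.246, where the median gene had -0.0130 and -0.0180. Of 17 interferon gamma induced GTPases and class I genes, 14 were called in each case, 13 of them in both, with a median r of 0.569 and 0.332. Among the latter were Psmb8 (r = 0.482 without 208), Psmb9 (0.450) and B2m (0.436), which build and carry class I peptides, and the GTPases Irgm1 (0.360) and Iigp1 (0.418).

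Sensors and factors were called less evenly. Of 7 nucleic acid sensors measured, 4 were called and 2 without animal 208, Ifih1 (r = 0.420), the sensor of long double-stranded RNA, and Tlr3 (0.206). Of 7 genes of ISGF3 and the interferon regulatory factors, 5 were called and 2 without animal 208: Irf1 (0.390) and Irf9 (0.230), the DNA-binding part of ISGF3. Stat2 passed only with animal 208 (limma adjusted p = 0.0246, r = 0.208, and -0.0174 without it), and Irf3 was called negative without it (-0.189).

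Few receptor and ligand genes passed the limma test. Of 8 receptor and kinase genes, 1 was called positive with animal 208 and 0 without (3 positive and 2 negative at an unadjusted p under 0.05), and Ifnar1 had r = 0.163 (limma adjusted p = 0.0570) and Ifnar2 0.0732 without it. Of 4 ligand genes measured, Ifng was called with animal 208 (r = 0.485) and none without it (1 at an unadjusted p under 0.05). Ifng was at 0.497 in animal 208, above its highest value of 0.0939 in the other brains. Of 6 negative regulators, 2 were called in each case, and the phosphatase Ptpn6 (0.231 without 208) was in both. Of the 3 genes measured from the list for joining Isg15 or ubiquitin to proteins, 1 was called in each case, but not the same gene. Trim25, an Isg15 ligase, was called with animal 208 (r = 0.335) and not without it (0.132). Ube2l6, the conjugating enzyme of Isg15, had r = 0.0317 without 208. The gene called then was Ube2n, an enzyme of ubiquitin, and neither Trim25 nor Ube2l6 was.

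Markers of cell types were read beside these counts. Microglial markers were called in 4 of 8 genes, and in 2 without animal 208, C1qb (r = 0.248) and C1qc (0.353), both complement genes. Lymphocyte markers were called in 2 of 9 with animal 208, and without it 0 were positive and 3 negative. The mean log10 level of the microglial list was 0.189 in animal 208, exceeded in 1 other brain, and ran from -0.185 to 0.198 over animals. That of the lymphocyte list was 0.141, also exceeded in 1 brain, over a range of -0.0490 to 0.178. Cd3d, of the T cell receptor complex, was 2.61-fold over the median brain there, and C1qc 2.89-fold. Without animal 208 as many were called positive in other lists: 2 of 6 choroid plexus genes, 2 of 7 of meninges and fibroblasts, 2 of 10 of endothelium and pericytes, and 1 of 7 astrocyte genes. With animal 208 these counts were 0, 1, 0 and 1. Red cell, neutrophil, neuronal and oligodendrocyte lists had no gene called positive by limma in either fit, and at an unadjusted p under 0.05 only the oligodendrocyte list had 1, without animal 208. Because each value is a ratio to a pool of the same tissue, the markers show differences between brains and not whether a cell type is present. In bulk tissue more cells of a type and more RNA per cell cannot be told apart, and the part of cell numbers in these relations was not tested.

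Other genes were raised in animal 208 with the 9. Cxcl10 was at 1.72 there, 119.5-fold over the median brain, with a range of -0.747 to 0.592 in the other animals. Ifi204, a DNA sensor of the interferon inducible family, was 19.6-fold, the chemokine Ccl5 15.0-fold, and the GTPase Ifi47 10.3-fold. Isg15 at 1.17-fold was therefore lower in this brain, relative to its own median, than these named genes and the other 9. Not every listed interferon induced gene was raised there: Ifi205 was at -0.0200, below its median of -0.000304.

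The Isg15 probe varied with a different set of genes, and very closely. Isg15 rests on this 1 probe, and which transcripts the probe reads was not tested. By r without animal 208 the closest were Wipf1 (0.971), Ucn3 (0.965), Nutm1 (0.965), Olfr957 (0.965), Fbxo10 (0.961), Defa3 (0.960), Defb7 (0.958), Apln (0.958), Gprin3 (0.957) and Krt71 (0.957). Their known roles have little in common: Ucn3 encodes the peptide urocortin, Olfr957 an olfactory receptor, Defa3 and Defb7 defensins, Apln the peptide apelin and Krt71 a keratin of hair follicles. The genes of lowest r were Psmg2 (-0.692), Mark1 (-0.651) and Tdp2 (-0.633).

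In all 59 genes reached r of 0.9 or more with Isg15 (56 with animal 208), which is 0.513% of those tested, and none did so with any of the other 9 genes. At the edge, Fgfr3-ps was inside at 0.905 and Gm5154 outside at 0.899. These 59 were picked for their relation to Isg15, so that relation is a description. Among themselves they had a mean r of 0.924 and a lowest of 0.811. A single gene of the interferon lists was among them, Ifi205 (0.939). Over single probes, 150 reached 0.9 and 65 of these had no gene symbol.

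The interferon lists showed no common direction with Isg15. Of the 31 other interferon induced genes, 9 were called positive and 11 negative without animal 208 (median r -0.0369), and of the 17 GTPase and class I genes 2 and 3 (median -0.0317), where all genes had 24.9%, 31.8% and a median of -0.0268. Of 8 microglial markers 5 were called positive with Isg15 and 0 negative, with a median r of 0.283. This was not particular to Isg15, as 7 of the 8 were called positive with Irf7 (median r 0.290, where 18.3% of all genes were). On Isg15, 4 of 6 oligodendrocyte markers and 3 of 5 neuronal markers were called negative, with 1 positive in each list. The part of cell numbers in the level of Isg15 was not tested.

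Beside the 0.513% of all genes, olfactory receptors gave 1 of 263 measured genes, keratins 1 of 22, defensins 2 of 17 and cytosolic ribosomal proteins 0 of 44. These families were outside the pathway and cell type lists. The olfactory receptors, keratins and defensins include genes named above for their r with Isg15, so the counts are only a description. The brains that were highest for Isg15 were highest for the genes closest to it too, as Wipf1 was at 0.438 in animal 178 and 0.290 in animal 14, against 0.391 and 0.271 for Isg15. In animal 208 Wipf1 was at -0.0509, below its median of -0.00993, while Isg15 was at 0.0611.

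Against the mean of the 59 genes Isg15 had r = 0.979, and the SD left after a straight line was 0.0160 of 0.0782. In animal 208 the line gave -0.0542, so Isg15 lay 0.115 above it, or 7.22 times the SD left. The largest distance above the line among the other 247 brains was 0.0744, in animal 213, and the lowest value against the line was -0.0947. The set and the line were taken from those brains and not from animal 208, so its distance is not on an equal footing with theirs. Animal 348, second for the core genes, lay 0.0225 above the line, or 1.41 times the SD left. So the brain highest for the other 9 genes was also the one where Isg15 departed furthest upward from the genes it otherwise followed.

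**Figure D5:**
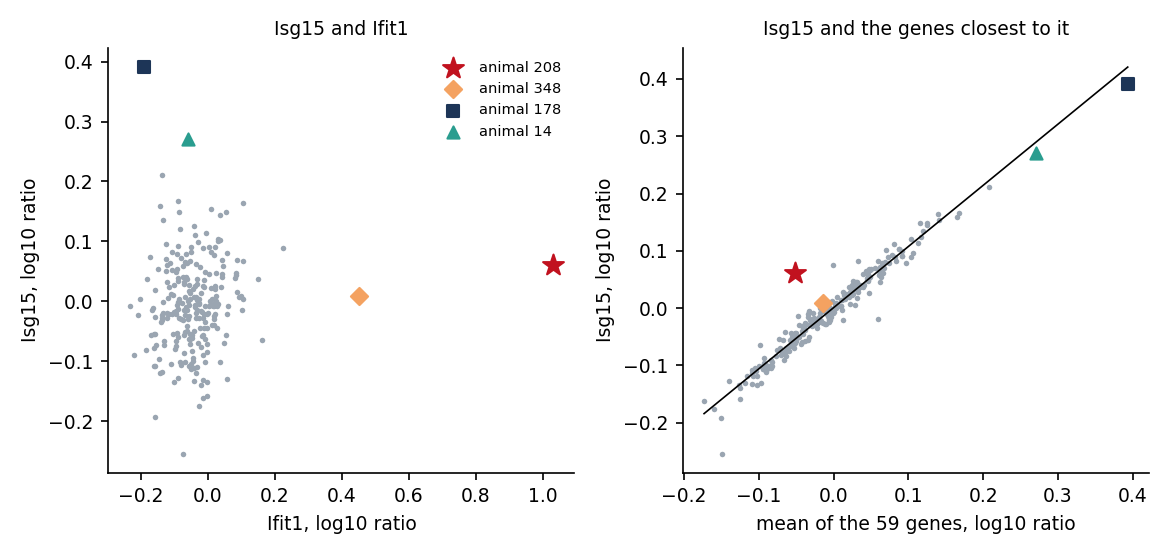
Isg15 against Ifit1 (left) and against the mean of the 59 genes closest to Isg15 (right), as log10 of animal over pool, 1 point per brain analysed, with the line fitted without animal 208. Animal 208 (star) is far right of the others on the left panel, and 0.115 above the line on the right panel.

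Once the mean of the 59 genes was taken out of both sides, all 9 other genes had a positive r with what was left of Isg15, without animal 208. Bst2 moved from -0.307 to 0.342 and Ifit2 from -0.268 to 0.198. Oasl2 moved from 0.0345 to 0.345 and Usp18 from 0.0310 to 0.313. Ifit3 was at 0.221, Rsad2 at 0.20, Ifit1 at 0.173, Irf7 at 0.173 and Oas1a at 0.112. The mean of the 9 was 0.230, where the median of 11448 genes was -0.0113.

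These values were not the highest of all genes. Oasl2 ranked 35th, Bst2 39th and Usp18 72nd of 11448, and the others lay between 546th and 2364th. The ranks depended on the set: with it taken at 0.8 Oasl2 ranked 138th, Bst2 65th and Usp18 484th, and Irf7 moved from 1169th to 618th without animal 178. The genes of highest r were Has2 (0.491), Spin1 (0.489) and Prl4a1 (0.482), which are not on the interferon lists. Tap1, the peptide transporter of class I, was 10th (0.420) and the GTPase Igtp 26th (0.359). With the set taken at 0.8 or 0.95 in place of 0.9 the mean of the 9 was 0.206 and 0.222, and without animal 178 it was 0.226. The set and this step were chosen after the values were seen, so no test is given. The cause of the relation of Isg15 to these genes was not tested.

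The other genes that left the core each had their own closest genes. Rsad2 was closest to Alas2 (r = 0.714 without animal 208), the first enzyme of haem synthesis in red cells, Hbb-b2 (0.640), Trp53rkb (0.640) and Hbb-b1 (0.603), both Hbb genes encoding beta globin. All 5 red cell markers measured were called positive with Rsad2 without animal 208, where 21.2% of all genes were. Their median r was 0.603, against -0.0167 for the median gene. With Irf7 3 of the 5 were called positive without animal 208 (median r 0.197, where 18.3% of all genes were), and with Ifit1 and Isg15 0 were. The mean level of the red cell list ran from -0.361 to 0.437 over animals and was 0.00958 in animal 208, 71 brains being higher. The part of blood left in the tissue in the level of Rsad2 was not tested.

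Ifit2 was closest to Smc3 (0.848), Eea1 (0.828) and Lamp3 (0.828), and 146 genes had an r of 0.7 or more with it without animal 208, against 0 for Ifit1. With animal 208 the order turned, with 3 genes for Ifit2 and 19 for Ifit1, and Smc3 was at 0.705. Smc3 is a cohesin subunit and Eea1 tethers early endosomes. Without animals 208 and 178 the first 3 were at 0.781, 0.764 and 0.749. Of the 10 genes measured nearest to Ifit2 on chromosome 19, Kif20b, a mitotic kinesin, had the highest r without animal 208 (0.548), above Ifit3 (0.304) and Ifit1 (0.298). With animal 208 it was below them, at 0.491 against 0.542 and 0.546.

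Oas1a rested on 2 probes that barely varied together (r = 0.0817, and 0.165 with animal 208). The second probe had r from 0.143 to 0.380 with the other members apart from Isg15 (-0.177). The first had r from -0.0914 to 0.260 with them, and its closest gene was the olfactory receptor Olfr380 (0.783), with 6 olfactory receptors among its 20 closest. The mean of both therefore carried less of the shared variation than the second probe did. Oas1a belongs to a cluster of near-identical genes on chromosome 5, and which of them each probe reads is uncertain.

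The position of Isg15 on chromosome 4 was looked at last. Of the 10 measured genes nearest to it, 3 were called positive and 3 negative with Isg15 without animal 208. Of all genes 24.9% and 31.8% were. Sdf4 was at 0.274 and Noc2l at -0.363, while the next gene on each side, Agrn (0.0418) and Plekhn1 (0.0282), had values near 0. Among the 10 neighbours of Oasl2 on chromosome 5, 4 were called positive and 4 negative with it without animal 208 (27.7% and 30.8% of all genes were). The positive ones were Oasl1 (0.684), Unc119b (0.487), Gltp (0.465) and Ankrd13a (0.386). The lowest was Trpv4 (-0.273). The neighbours of Usp18 had r between -0.271 and 0.137 with it without animal 208.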

How the data were processed

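Each deposited value is a log10 ratio, animal (Cy3) over pool (Cy5), 1 per probe and array, limited to -2 and 2. Per the labels the dyes are as stated. Scanner, background treatment and dye normalization: not given in the sources used here. Direction and base were checked on Eif2s3y, which averaged 0.306 in the 113 animals above 0; a pool with equal parts of both sexes gives 0.301. Of 23388 probes, 13645 had 1 gene symbol, 48 several and 9695 none. Probes measured on at least 90% of arrays (13444) were averaged by gene (11508 genes). Missing values of the 10 genes were left out (Oasl2 4 animals, Usp18 10), and those of other genes were set to the probe mean. Each gene was regressed on each of the 10 with limma 3.58.1 (R 4.3.3), adjusted by Benjamini-Hochberg over all genes. Data were also simulated at this size, with genes independent of each other and the level of Ifit1 without animal 208. There the fit called 36% of genes at a true r of 0.2, 96% at 0.3 and 100% at 0.4. The measured genes vary together, so these shares may not hold for them or for the other regressors. The number of arrays limits the precision. Named genes were the 10 themselves, the 10 closest and 3 lowest to Ifit1 and Isg15, list genes called positive on Ifit1 with and without animal 208, the 5 measured neighbours on each side of Isg15 and the 5 highest animals; genes named outside this rule were picked after their values were seen. Members and lists were chosen with earlier results of these data known. One animal carries 2 numbers in its labels (399 and 339), and the labels speak of 330 mice where the design has 249.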

Additional observations from a re-analysis of the deposited data

How the results depend on the processing

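Of 152 results under 19 alternatives, 126 kept their value, a count within 1.5 times or a mean r within the SD over pairs; 6 alternatives were added after the data were seen. Genes called positive with Ifit1 (363) came to 833 without animal 208, 2101 with all 249 arrays, 738 on ranks, 576 after quantile normalization, 159 in the lower part of the animal numbers, 944 without 208 and 348, 558 without 208, 178 and 14, 1006 without 208 and with the first component as covariate, 728 on ranks without 208 and 178, and 122 in the higher part without 208. Genes called with Isg15 (2851) came to 1259 in the higher part, and 1272 there without 208. The other members called positive with Isg15 were 0, and 1 without the 12 widest arrays, on ranks, after quantile normalization, with the probe of largest SD, in the lower part, without 208, 178 and 14, and on ranks without 208 and 178; they were 2 with the first component as covariate, with or without 208. This was Ifit1 in 7 alternatives, Ifit2 in 2, and Irf7 and Oas1a in 1 each. Called pairs fell from 36 to 21 where only probes measured on every array were used, which removes Oasl2 and Usp18. The mean r of the 9 genes other than Isg15 (0.557) was 0.366 on ranks, 0.335 in the lower part, 0.347 without 208 and 348, and 0.360 on ranks without 208 and 178; the cause was not tested. With all 10 genes the mean r ran from 0.252 to 0.544, and for Isg15 from -0.0804 to 0.0330, over all alternatives. No paired analysis was possible because the animals form 1 group.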

Other observations

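The array left out, that of animal 144, also had high values of these genes apart from Isg15. Usp18 was at 0.815, Bst2 at 0.792, Irf7 at 0.784, Ifit3 at 0.719, Ifit1 at 0.718, Oasl2 at 0.684, Rsad2 at 0.600, Oas1a at 0.578 and Ifit2 at 0.563, each above every other brain but animal 208 and, for Rsad2 and Oas1a, above animal 208 too. Isg15 was at -0.0833, with 213 brains higher. Against the line on the 59 genes closest to Isg15 it lay 0.0348 higher, or 2.18 times the SD left. The SD over genes of this array was 0.392, the widest of all 249. It entered the fits only in the alternative with all 249 arrays.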
